A study of Mus musculus with 15 samples.

Results

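Cytosolic ribosomal proteins are the protein subunits of the ribosomes that translate messenger RNA in the cytoplasm. They were followed here through every probe set with a single annotated gene symbol made of Rpl or Rps and a number, together with Rpsa and the stalk proteins Rplp0 to Rplp2. Rps6k kinases, which phosphorylate Rps6, and pseudogenes were left out. The rule found 100 probe sets of 48 genes among 22690 probe sets on the array. Of these, 50 probe sets measured 20 genes of the small subunit and 39 measured 20 genes of the large subunit. The stalk had 2 probe sets, 1 each for Rplp0 and Rplp2, and 9 probe sets measured 6 paralogues whose symbols end in l (Rpl22l1, Rps27l, Rpl39l, Rpl7l1, Rpl3l and Rps4l). Rpl3 and Rplp1 had no probe set that met the rule, and 102 further probe sets that list a ribosomal protein symbol beside other symbols were not members.

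The livers came from adult male mice aged 3 months, with 3 biological replicates and so 3 arrays in each of 5 groups. Z mice carried an inducible, hepatocyte-specific transgene for the Z mutant of human alpha1-antitrypsin, the misfolding form of this secreted protease inhibitor that accumulates in hepatocytes. M mice carried the same kind of transgene for the wild type M form. In group 4 (Z4, M4) the mice had no doxycycline and the transgene was on. In group 1 (Z1, M1) they drank 40 µg/mL doxycycline from conception and the transgene was off. The sample labels call the mice of both M groups wild type, and they were taken here as carrying the M transgene, as the growth protocol describes M mice. If the M1 mice carried no transgene, M4 against M1, M1 against the other groups and the difference between the lines would compare something else. WT mice were wild type littermates with neither transgene nor doxycycline. An on group therefore differed from its off group in transgene expression and in the drug, and these cannot be told apart in that comparison. The level of the human transgene was not measured here, so the on and off states rest on the labels.

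A ribosome has a small subunit, which reads the messenger RNA, and a large subunit, which joins amino acids and bears the stalk that recruits translation factors. Each subunit holds single copies of many different ribosomal proteins, and most of their transcripts begin with a terminal oligopyrimidine (TOP) tract, through which the growth-regulating kinase complex mTORC1 controls their translation. In liver, which exports much protein, these transcripts are among the most abundant. Some genes have a paralogue that can take the place of its relative in the ribosome, such as Rpl22l1 for Rpl22 and Rps27l for Rps27.

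The values were deposited linear signals, and differences below are log2 changes of signal + 16. A probe set was called at a limma adjusted p (Benjamini-Hochberg over 22626 non-control probe sets) under 0.05. Signals of different probe sets are not comparable as levels, because each has its own probes. Of the members, 84 reached a signal of 50 on at least 1 array and 16 were dim, below 50 on every array. The member means ran from 2.14 for Rpsa 1416196_at, 3.02 for Rps4x 1420303_x_at and 4.14 for Rps18 1421837_at to 4112 for Rpl41 1455578_x_at, 4663 for Rps2 1431766_x_at and 4736 for Rps29 1438859_x_at. Of the probe sets, 40 had the suffix _x_at and 2 the suffix _s_at, which mark probes shared with other transcripts. Ribosomal protein genes have many near-identical processed pseudogenes, so which copy gave the signal is uncertain for these.

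Several array-wide measures moved with the groups. The median signal of all probe sets was 49.9 ± 2.38 (SD, n = 3) in Z4 and 48.5 ± 5.70 in M4, against 31.9 ± 0.10 in Z1, 30.5 ± 0.520 in M1 and 43.4 ± 1.32 in WT. The poly-A spike controls had array medians of 2 to 2.3 in Z4 and 3.7 to 5.2 in M4, against 33.8 to 57.9 in the other groups. The probe set for the 5′ part of 18S ribosomal RNA read 1830 to 2681 in the on groups and 75 to 568 in the others, while the middle one overlapped between on and off (228 to 454 in Z4, 234 to 344 in Z1, 231 to 357 in M4, 207 to 280 in M1) and the 3′ one overlapped in Z (1333 to 3118 against 791 to 2703) but not in M (1610 to 2823 against 702 to 1206). The hybridization controls had medians of 238 to 288 in the on groups and 452 to 685 in the others. The 3′ to 5′ signal ratio of actin, a measure of RNA integrity, was 1.47 to 1.73 in Z4, 1.8 to 2.06 in Z1, 1.29 to 1.61 in M4, 1.66 to 2.01 in M1 and 2.34 to 2.46 in WT. That of Gapdh was 0.90 to 0.96 in Z4, 0.82 in Z1, 0.84 to 0.92 in M4, 0.76 to 0.81 in M1 and 1.05 to 1.11 in WT. Arrays M4 1 and M4 2 went against the label of male mice. Xist (1436936_s_at), which silences an X chromosome in female cells, read 1149.2, 226 and 32.6 on M4 arrays 1 to 3 and at most 74.3 elsewhere. The Y-linked Eif2s3y read 0.4, 1.3 and 42.1, and at least 105.3 elsewhere. The part of these differences in the results below was not tested.

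The tissue read as liver. All 9 hepatocyte markers on the array were above 50 on some array, and their summed signal was 55204 to 59604 in Z4, 63567 to 73664 in Z1, 55772 to 66374 in M4, 64413 to 71624 in M1 and 92931 to 115956 in WT. Of these 9, 0 were called between on and off in either line by limma on the deposited scale. At an unadjusted p under 0.05 on that scale, 2 were lower and 1 higher in Z and 2 and 0 in M. After quantile normalization 2 were called higher in Z and 0 in M, and the median change in Z went from -0.23 to 0.12. On the deposited scale 7 were lower than WT in Z4 and 7 in M4, against 0 and 0 after quantile normalization. Kupffer cell markers summed to 3145 to 3674 in M4 and 1425.5 to 1834.7 in Z4, against 1934 to 2010 in M1 and 1482 to 2454 in Z1, with 5 of 10 higher in M and 2 of 10 lower in Z. Of 7 stellate cell and fibroblast markers, 4 were higher in Z and 3 in M. Of 7 endothelial markers, 1 was higher and 1 lower in Z and 4 were higher in M. Lymphocyte markers summed to 271 to 291 in Z4, 161 to 181 in Z1, 327 to 353 in M4 and 104 to 198 in M1, with 2 of 8 higher in Z, 5 of 8 higher in M and 4 of 8 below 50 on every array. Beside these, 27.9% of all probe sets were called higher in Z and 33.2% in M, and 8.14% and 13.4% lower. Counts of rises near those shares are not read as a result about a cell type. After quantile normalization, lymphocyte markers had 1 fall and 0 rises in Z and 1 and 3 in M. Kupffer cell markers then had 2 and 0 in Z and 0 and 4 in M. Stellate cell and fibroblast markers had 0 and 3, and 1 and 2, and endothelial markers 2 and 1, and 2 and 3. The part of these cell types in the results was not tested. In tissue RNA, fewer cells of a type and less RNA per cell cannot be told apart.

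On the deposited scale the median ribosomal protein signal was lower in both on groups than in their off groups. The median signal of the 84 members that were not dim was 1520, 1581 and 1567 on the Z4 arrays against 2282, 2055 and 1910 on the Z1 arrays. It was 1667, 1769 and 1844 in M4 against 2162, 2432 and 2323 in M1, and 2223, 2294 and 2270 in WT. Every on array lay below every off and WT array. Of single members, 53 of 100 had all 3 Z4 arrays below all 3 Z1 arrays (13.8% of all probe sets did), and 48 had M4 below M1 throughout (14.8%). The group means were 1556 ± 32.2 in Z4, 2082 ± 188 in Z1, 1760 ± 88.6 in M4, 2305 ± 136 in M1 and 2262 ± 36.1 in WT (SD, n = 3 each). The median of all probe sets went the other way, higher in the on groups than in the off groups.

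**Figure D1:**
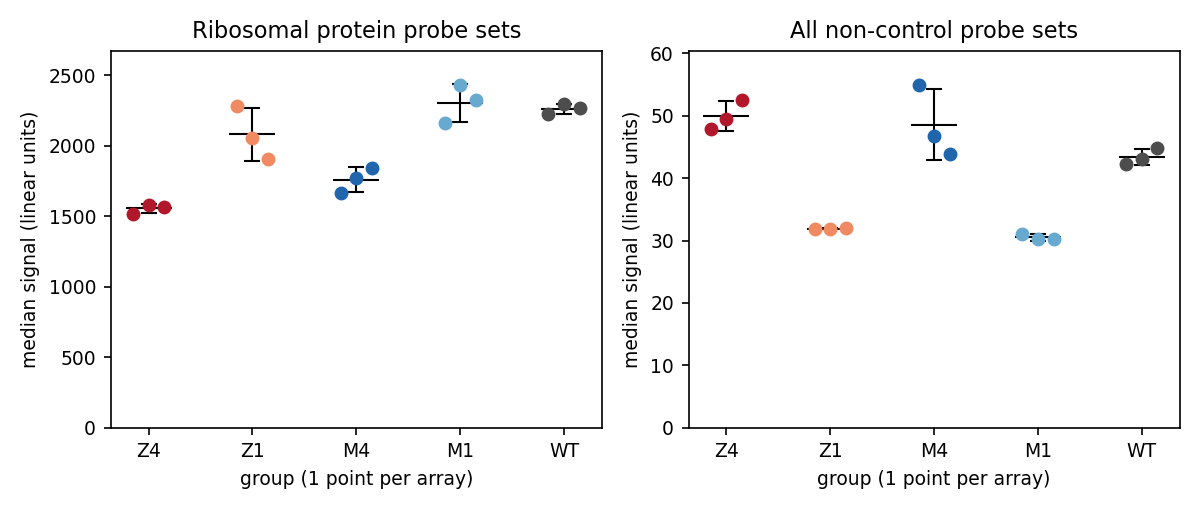
Median signal per array (linear units) of the 84 ribosomal protein probe sets that were not dim, left, and of all non-control probe sets, right, in the 5 groups. Points are arrays, the horizontal dash is the group mean and the bars are 1 SD (n = 3). Members sat between 1520 and 1844 on the on arrays (Z4, M4) and between 1910 and 2432 on the off and WT arrays, while the median of all probe sets was highest in the on groups.

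In Z4 against Z1, 40 of 100 members were called lower and 7 higher. Of all probe sets, 8.14% were called lower and 27.9% higher. The calls covered 23 genes with a lower probe set, 7 with a higher one and 22 with no call. In M4 against M1, 40 members were called lower and 8 higher, against 13.4% and 33.2% of all probe sets, covering 24, 8 and 22 genes. Without arrays M4 1 and M4 2 the M counts were 22 and 3, and without M4 2 and M4 3 they were 35 and 6. The small counts of rises moved with single arrays: without Z4 2 or Z1 1 they were 4 in Z, and without any 1 of M4 1, M4 2, M1 1, M1 2 or M1 3 they were 3 to 5 in M. The median change of the members was -0.28 in each line, while that of all probe sets was 0.21 in Z and 0.23 in M. It stayed below 0 after quantile normalization (-0.21 in Z and -0.25 in M) and after cyclic loess (-0.22 and -0.20).

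Bright probe sets as a whole were lower in the on groups, so the members were also read against probe sets of like signal. Among probe sets with a mean of 1000 or more, 33 of 60 members (55.0%) were called lower in Z4 against Z1, beside 32.4% of all 1122 such probe sets. In M4 against M1 the counts were 30 of 60 (50%) beside 34.6%. Quantile normalization removed the shift between arrays: the median change of all probe sets went from 0.21 to -0.00 in Z and from 0.23 to 0.02 in M. The share of higher calls went from 77.4% to 51.2% in Z and from 71.3% to 51.8% in M. On that scale 31 members were called lower and 7 higher in Z, with 12.6% of all probe sets lower, and 36 and 6 in M, with 18.1%. In the bright range the members' share of lower calls was then 31.7% beside 15.7% in Z and 35.0% beside 23.3% in M. With cyclic loess it was 33.3% beside 16% and 30% beside 22.3%.

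**Figure D2:**
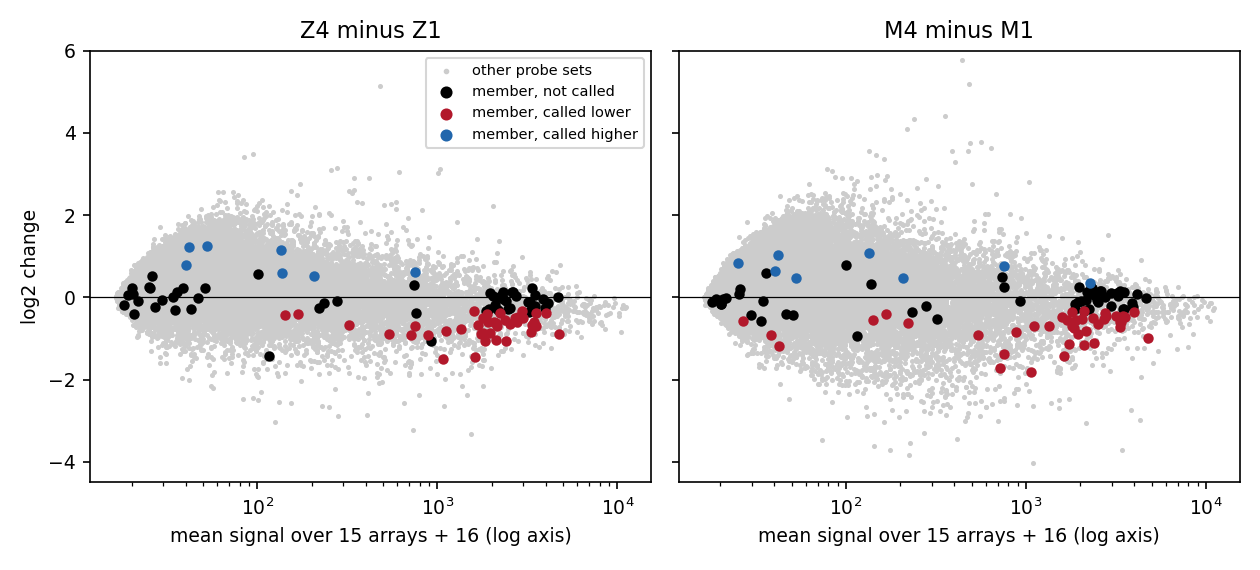
Log2 change of every non-control probe set against its mean signal over 15 arrays + 16 (log axis), for Z4 minus Z1 and M4 minus M1. Grey points are other probe sets, black, red and blue points are the 100 members by limma call, with 40 lower in each panel and 7 and 8 higher. The members called lower lie mostly at high signal, where grey points also shift below 0, and those called higher mostly at low signal.

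The falls were the same probe sets in both lines to a large extent. The comparisons share no arrays, but the fit gave both the same estimate of a probe set's spread, so their calls are not independent. Called lower in both were 33 probe sets of 20 genes, which is 82.5% of the 40 in Z and 82.5% of the 40 in M. Over all probe sets, 1207 falls were shared, 65.6% of the 1841 in Z and 40.0% of the 3021 in M. The overlap was not read at like signal. Of the rises, 6 were shared, and 0 members were called in opposite directions. Called lower on the deposited scale and after quantile and cyclic loess normalization were 24 probe sets of 15 genes in Z. These genes were Rpl13a, Rpl19, Rpl22, Rpl27, Rpl27a, Rpl35, Rps14, Rps15, Rps19, Rps20, Rps24, Rps27l, Rps29, Rps6 and Rps7. In M they were 28 probe sets of 18 genes, the same genes without Rpl19 and with Rpl22l1, Rpl4, Rpl7l1 and Rps9.

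**Figure D3:**
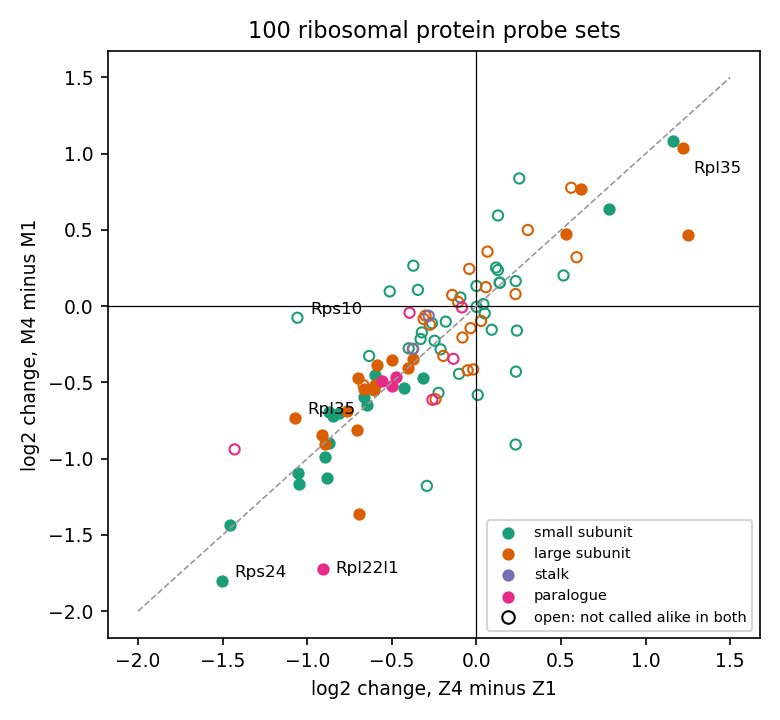
Log2 change of the 100 member probe sets in Z4 minus Z1 (horizontal) and M4 minus M1 (vertical), coloured by role, with the dashed line marking equal change. Filled points were called in the same direction in both lines (33 lower, 6 higher). Rps24 1456628_x_at lies lowest on both axes, at -1.50 and -1.80. The filled Rpl41 point at 1.25 and 0.47 is the exception to a steady direction, since its M change was -0.02 after quantile and -0.15 after cyclic loess normalization.

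Because many members moved together, their promoters were read for shared sequence. RefSeq windows of the assembly GRCm38.p6, from 250 bases before to 50 after each start, were found for 42 of the 48 genes (50 windows). The array's own build was not given in the sources used here. The lines below show 30 bases before and 20 from the start on, 5′ to 3′ on the transcript strand, with the longest pyrimidine run in capitals. Rps24 (first of 2 starts), Rpl35, Rpl27a and Rps6 fell in both lines, Rpl22l1 is the called paralogue with the largest fall, Rps9 differed between the lines, and Rpl7a was not called between on and off.
Rps24 chr14:24490648-24490697 (+ strand): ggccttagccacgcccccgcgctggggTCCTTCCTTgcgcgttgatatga
Rpl35 chr2:39005112-39005161 (- strand): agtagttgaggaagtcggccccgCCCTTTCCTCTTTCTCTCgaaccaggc
Rpl27a chr7:109519165-109519214 (+ strand): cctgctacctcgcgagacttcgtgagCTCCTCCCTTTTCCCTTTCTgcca
Rps6 chr4:86857348-86857397 (- strand): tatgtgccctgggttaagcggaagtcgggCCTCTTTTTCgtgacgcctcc
Rpl22l1 chr3:28805478-28805527 (+ strand): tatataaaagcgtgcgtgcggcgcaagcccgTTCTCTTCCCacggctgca
Rps9 chr7:3704011-3704060 (+ strand): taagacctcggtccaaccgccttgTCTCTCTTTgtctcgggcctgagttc
Rpl7a chr2:26910777-26910826 (+ strand): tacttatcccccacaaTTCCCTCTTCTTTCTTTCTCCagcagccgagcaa

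These windows differ in the length of the run, from 9 bases in Rps24 and Rps9 to 21 in Rpl7a, the gene that was not called. The run lay at or next to the start in each of the printed windows. Not every gene that fell in both lines had such a run. Rps28 and Rps15 had longest runs of 5 and 7 bases, which began 21 and 19 bases before the start. Over the 50 member windows, the median longest pyrimidine run within the 50 bases around the start was 7, against 5 in all 32851 windows. A run of 8 or more was found in 46% of member windows and 19.7% of all.

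The motif CTTTC on the transcript strand lay in those 50 bases in 24% of member windows and 6.75% of all. On both strands of the 300 bases, CCGGAAG, a core bound by Ets family factors, was in 42% and 8.86%. TATAAA was in 12% and 13.6%. These motifs were searched one by one and may overlap. Of the 16 genes with a window and a lower probe set in both lines, 4 held CTTTC in the 50 bases on the transcript strand. So did 6 of the 16 with a window and no call in either line. The median longest run was 7 in both sets. A match is a description of letters and not a measured site.

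In the small subunit, 19 of 50 probe sets were called lower in Z4 against Z1 and 2 higher, and 19 and 3 in M4 against M1. Rps24, a protein of the small subunit needed to process its ribosomal RNA, had the largest falls. Its probe set 1428530_x_at read 959.2, 882.8 and 730.7 in Z4, 2842.9, 2279.6 and 2050.9 in Z1, 770.1, 764.3 and 872.8 in M4, 1983.2, 2288.3 and 2320.1 in M1, and 1838.6, 1786.4 and 1742.2 in WT. All 6 on arrays lay below all 9 others, and the on groups overlapped. The change was -1.46 (SE 0.14, limma adjusted p = 2.06e-05) in Z and -1.43 (SE 0.14, limma adjusted p = 8.51e-06) in M. A second probe set, 1456628_x_at, changed by -1.50 in Z and -1.80 in M, but its WT arrays (926.6, 652 and 603) were near the on arrays and its off groups were called higher than WT, by 1.31 and 1.17. Of the 6 Rps24 probe sets, 4 were called lower in Z and 5 in M.

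Rps20, at the head of the small subunit, showed the same pattern. Probe set 1456436_x_at read 1329.3, 1558.5 and 1266.3 in Z4 against 3141.5, 2745 and 2726.4 in Z1, 1012.6, 1142.4 and 1381 in M4 against 2366, 2845.5 and 2737.4 in M1, and 2226.4, 2503.9 and 2551.8 in WT. Again no on array reached an off or WT array. The changes were -1.05 (SE 0.14, limma adjusted p = 0.000128) in Z and -1.17 (SE 0.14, limma adjusted p = 3.19e-05) in M.

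Rps15, Rps19, Rps29, Rps7 and Rps14 fell in both lines. Rps19, the gene most often mutated in Diamond-Blackfan anemia, an inherited failure of red cell production, read 693.8, 652.5 and 761 in Z4, 1347.8, 1204.5 and 1175.8 in Z1, 760.4, 824.6 and 908.7 in M4, 1310.5, 1418.8 and 1338.8 in M1, and 1395.3, 1320.1 and 1346.6 in WT. The off and WT arrays formed one range, between 1175.8 and 1418.8, above the on arrays. It changed by -0.81 (SE 0.11) in Z and -0.70 (SE 0.11) in M. Rps15 1416088_a_at changed by -0.87 and -0.69, and Rps29 1438859_x_at, a small zinc-binding protein, by -0.90 and -0.99. Rps7 1435593_x_at changed by -0.88 and -1.13, and Rps14 1437706_x_at by -0.85 and -0.72. For Rps7, Rps14 and Rps29 another bright probe set was not called in either line on the deposited scale. Rps7 1419364_a_at changed by 0.04 and 0.01, Rps14 1436586_x_at by 0.13 and 0.24, and Rps29 1415833_x_at by -0.21 and -0.28. The other Rps15 probe set, 1416089_at, was called lower in Z (-0.40) and was not called in M (-0.28).

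Rps6, the small subunit protein that the Rps6k kinases phosphorylate downstream of mTORC1, read 87.1, 96.9 and 127.5 in Z4 and 133.7, 141.9 and 155.8 in Z1 on probe set 1416142_at. It read 103.2, 106.9 and 105.8 in M4, 154.4, 162.3 and 163.8 in M1, and 120.2, 137.4 and 93.5 in WT. The on arrays lay below the off arrays in each line and overlapped WT. The change was -0.43 (SE 0.15, limma adjusted p = 0.0360) in Z and -0.54 (SE 0.15, limma adjusted p = 0.00864) in M, on a probe set of modest signal, and the dim second one was called higher in M only.

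Not every bright small subunit probe set was called between on and off. Rps2 1431766_x_at read 4054.2, 4381 and 4548.7 in Z4 and 4775.6, 4001.9 and 4220.6 in Z1, a change of 0.00, and -0.00 in M. Neither group stood apart from the other. Rpsa 1448245_at, which is a ribosomal protein and was also described as a laminin receptor, changed by -0.32 (limma adjusted p = 0.0665) and -0.17. Its Z4 arrays (1540, 1604.4 and 1577.2) lay below its Z1 arrays (2074.2, 1979.4 and 1866.3), and it was called lower in Z4 than in WT (-0.42). Rps26, which lies at the exit of the messenger RNA channel, changed by 0.14 and 0.15, Rps3 1435151_a_at by 0.00 and 0.13, and Rps18 1448739_x_at by 0.23 and 0.16. None of these probe sets was called between on and off on the deposited scale. Another bright Rps18 probe set, 1455572_x_at, was called lower in Z (-0.63) and was not called in M (-0.33). After cyclic loess normalization Rps18 1448739_x_at (0.51 and 0.40), Rps26 (0.39 and 0.36) and Rps14 1436586_x_at (0.36 and 0.44) were called higher in both lines, and after quantile normalization likewise except Rps26 in M.

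In the large subunit, 16 of 39 probe sets were called lower and 5 higher in each line. Rpl35, which sits at the exit of the nascent peptide tunnel, had 6 probe sets, 5 of them called lower in Z and 5 in M. Probe set 1436840_x_at read 1180.4, 945.3 and 972.1 in Z4, 2769.7, 2099.2 and 1776.7 in Z1, 1108.7, 1488.2 and 1762.4 in M4, 1997.4, 2590.9 and 2635.1 in M1, and 1654.9, 2188.6 and 2225.3 in WT. On and off arrays did not overlap within a line, but M4 overlapped WT. The changes were -1.07 (SE 0.21, limma adjusted p = 0.00135) and -0.74 (SE 0.21, limma adjusted p = 0.00988). The remaining Rpl35 probe set, 1454833_at, had a low signal of 28.3 to 65.1 on the on arrays and 6.8 to 15.4 on the off arrays, and was called higher by 1.22 and 1.04.

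Rpl13a, which also acts outside the ribosome in the silencing of inflammatory transcripts, fell on probe set 1417608_a_at, with changes of -0.70 in Z and -0.82 in M. Rpl27 1453096_x_at changed by -0.91 and -0.85. A brighter Rpl27 probe set, 1416099_at, did not follow: it read 2202.9, 1974 and 1884.8 in Z4 and 2090.7, 1930.8 and 1769 in Z1, and was called higher in M (0.36, limma adjusted p = 0.0446). Rpl19 read 1891.2, 1824.1 and 1877.4 in Z4, 2930.4, 2905.5 and 2604.4 in Z1, 2013.9, 2216 and 2792.6 in M4, 2922.7, 3143 and 3044.4 in M1, and 3453.5, 3666.9 and 3829.6 in WT. WT was highest and Z4 lowest, with changes of -0.59 in Z and -0.39 in M.

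Rpl22, an RNA-binding large subunit protein, fell on 1416603_at, with changes of -0.70 in Z and -1.36 in M. This probe set read 508.6, 472.3 and 428.7 in M4 and 1137.3, 1287.9 and 1275.7 in M1. WT, at 703.4, 485.5 and 579, was near the on arrays, and M1 was called higher than WT (1.06). Rpl4 1425183_a_at was called in M only (-0.61, against -0.24 and a limma adjusted p of 0.129 in Z). The difference between the lines for Rpl4 was 0.37 with a limma adjusted p of 0.341.

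Large subunit probe sets without a call included Rpl6 (0.03 and -0.10), Rpl7a (-0.03 and -0.14), Rpl37a 1416217_a_at (0.06 and 0.12) and Rpl41 1455578_x_at (-0.14 and 0.07). Rpl7 gave opposite calls. Its 1426162_a_at was called lower in both lines (-0.50 and -0.36), while 1426163_x_at was called higher (0.62 and 0.77) and read 854, 1232.7 and 963.2 in Z4, 1014.3, 957.7 and 961 in M4 and 442, 495.2 and 397.5 in WT. The higher reading was also called against WT, by 1.15 in Z4 and 1.11 in M4.

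Of the 2 stalk probe sets, 1 was called lower in Z and neither in M. Rplp0, the base of the stalk and a common reference gene in quantitative PCR, read 2746.3, 2826.3 and 2627.9 in Z4, 3597.4, 3525 and 3513.2 in Z1, 2776.6, 3463.8 and 3983.5 in M4, 3873.5, 4270.6 and 4150.8 in M1, and 3476.5, 3861.5 and 3927.1 in WT. The 3 Z4 arrays lay below the Z1 and WT arrays, while M4 overlapped M1. The change was -0.37 (SE 0.13, limma adjusted p = 0.0382) in Z and -0.28 (SE 0.13, limma adjusted p = 0.0953) in M. Rplp2, at -0.28 in Z and -0.06 in M, was not called, though its Z4 arrays (2066.2, 2030.6 and 2053.6) lay below its Z1 arrays (2924.4, 2484.2 and 2140.7).

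Among the paralogues called, Rpl22l1 had the largest falls in both lines. It read 313, 594.2 and 443.8 in Z4, 893.7, 905.2 and 710.6 in Z1, 501.8, 244.3 and 201.9 in M4, 1040.9, 1059.4 and 913.4 in M1, and 983.7, 940.7 and 770.6 in WT. All on arrays were below all others, and the on arrays ranged from 201.9 to 594.2. The change was -0.91 (SE 0.28, limma adjusted p = 0.0214) in Z and -1.72 (SE 0.28, limma adjusted p = 0.000251) in M. Its relative Rpl22 fell too on 1416603_at, as above, while the other Rpl22 probe set, 1448398_s_at, was called higher (0.53 and 0.47). The 3 probe sets of Rps27l, a p53 target, fell together, with changes of -0.56, -0.50 and -0.48 in Z and -0.49, -0.52 and -0.46 in M.

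Rps27, the gene Rps27l resembles, had 1 member probe set, at low signal (34.8 to 211.3), called higher by 1.16 and 1.08. Of the 2 probe sets of Rpl7l1, 1426386_at was lower in M only (-0.61). Rpl39l and Rpl3l, whose transcripts are known from testis and muscle, were dim and not called in either line. Rps4l varied widely within groups, for example 7.2, 144.2 and 2.2 in Z4, and was not called, with changes of -1.43 (SE 0.62, limma adjusted p = 0.0883) in Z and -0.94 in M.

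Probe sets of one gene often disagreed. Of the 23 genes with several probe sets, 4 had calls in opposite directions in Z (Rpl22, Rpl35, Rpl7, Rps20) and 6 in M (these and Rpl27, Rps6). In 13 genes in Z and 11 in M only some probe sets were called, and in 2 and 1 every probe set had the same call. By probe class, 22 of 40 _x_at probe sets were called lower in Z, as were 11 of 28 _a_at and 6 of 30 plain probe sets. In M the counts were 19, 13 and 7. Called higher were 2 _x_at, 0 _a_at and 4 plain probe sets in Z, and 2, 0 and 5 in M. Plain probe sets, which do not carry the mark of shared probes, were thus called in both directions. Their median change was -0.07 in Z and -0.22 in M, against -0.51 and -0.30 for _x_at probe sets. The classes were not compared at like signal, and most of the dim members were plain probe sets. Of the brightest plain probe sets, Rplp0, Rpl19 and Rps15 1416089_at were called lower in Z, and Rpl27 1416099_at and Rpsa 1448245_at were not. In M, of these, Rpl19 was called lower and Rpl27 1416099_at higher. The part of shared probes in the falls was not tested.

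**Figure D4:**
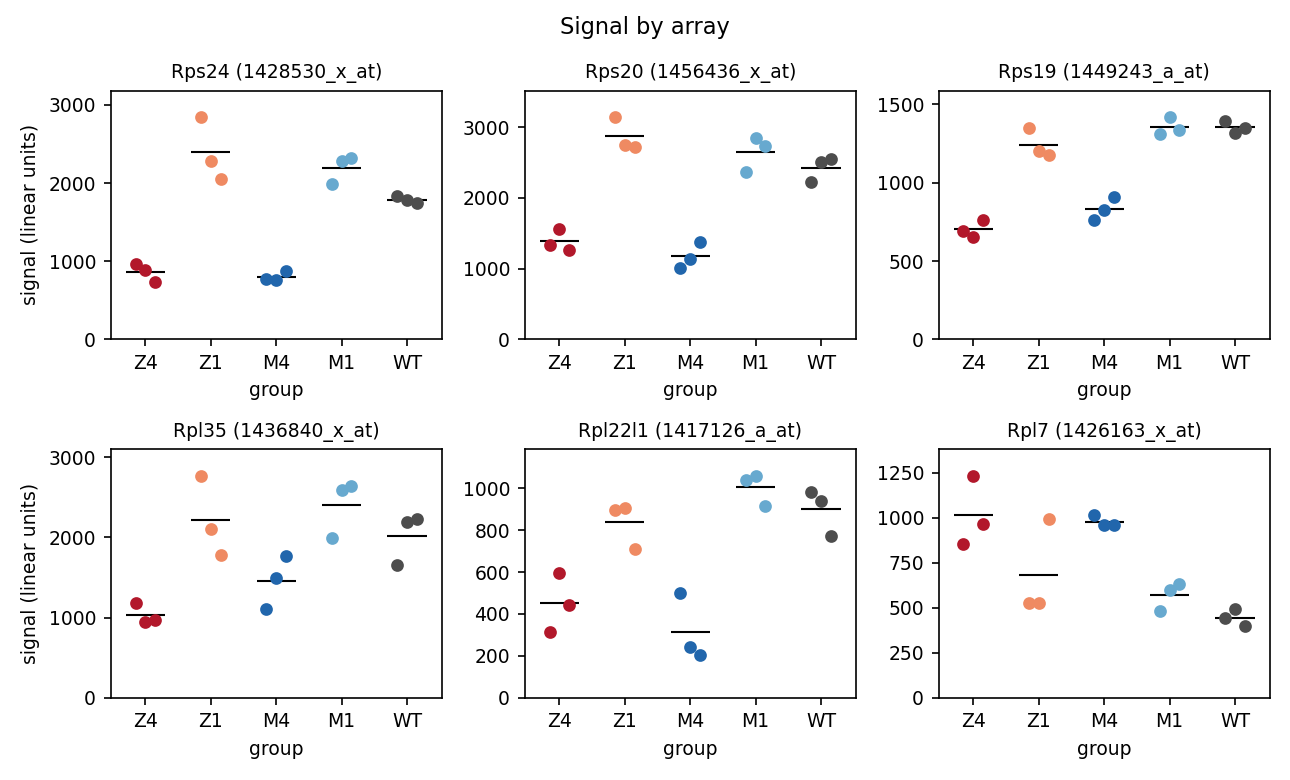
Signal per array (linear units, axes from 0) of 6 member probe sets in the 5 groups. Points are arrays and the black line is the group mean (n = 3). Rps24, Rps20, Rps19, Rpl35 and Rpl22l1 were lower in Z4 and M4 than in their off groups Z1 and M1, while Rpl7 1426163_x_at was higher in both, with group means of 1017 and 978 against 680 and 571.

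The difference between the lines in the size of the on-off change was tested as an interaction. By limma, 0 members were called in either direction, beside 0.159% of all probe sets lower and 0.181% higher, and 9 had an unadjusted p under 0.05, 2 lower and 7 higher. The smallest adjusted p was 0.0794, for the dim Rps24 1455195_at (0.89, SE 0.20). Without array M4 1, 3 members were called, and without M4 1 and M4 2, 4 were, with M4 array 3 assumed to vary like the other groups. They were Rpl22l1 (1.32), Rps9 1426958_at (1.65), Rpl41 1454639_x_at (1.18) and Rps24 1455195_at (1.1), and all but Rpl22l1 read at most 63.6 on every array.

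Against WT, with no doxycycline on either side, Z4 had 41 members called lower and 2 higher, beside 4.79% and 7.50% of all probe sets. M4 had 29 lower and 3 higher, beside 9.78% and 13.2%. The members' median changes were -0.36 and -0.26, against 0.05 for all probe sets in each. Among probe sets at 1000 or more, 39 of 60 members (65.0%) were lower in Z4, beside 31.4% of all, and 24 (40.0%) in M4, beside 33.8%. These counts rested on the scale. After quantile normalization 16 members were lower in Z4 and 20 in M4, beside 4.72% and 10.3% of all probe sets. After cyclic loess they were 16 and 16, beside 4.88% and 11.6%. In the bright range after quantile normalization, 23.3% of members were lower in Z4, beside 9.71% of all. In M4 the shares were 23.3% beside 17%. After cyclic loess the members' bright share stayed above that of all in Z4, while in M4 it was 16.7% beside 16.8%. Without arrays M4 1 and M4 2, 14 members were lower in M4, and without M4 2 and M4 3, 17. Without array Z4 2 or WT 2 the falls in Z4 numbered 26 or 27. The comparisons share the WT arrays.

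Rps15 had the largest fall against WT in Z4. Its 1416088_a_at read 1119, 1033 and 1005.9 in Z4, 1114.3, 1319.9 and 1624.6 in M4 and 2328, 2441.6 and 2374.8 in WT. Both on groups lay below WT without overlap, and they overlapped each other. The change was -1.17 (SE 0.13, limma adjusted p = 0.000283) in Z4 and -0.82 (SE 0.13, limma adjusted p = 0.00118) in M4. Rps24 1428530_x_at changed by -1.06 and -1.14, Rpl22l1 by -1.01 and -1.56, Rpl19 by -0.96 and -0.65, and Rps19 by -0.93 and -0.70. Under all 3 scalings, 15 probe sets of 9 genes stayed lower in Z4 (Rpl19, Rpl27, Rpl35, Rps14, Rps15, Rps19, Rps20, Rps24 and Rps28). In M4 they were 14 probe sets of 11 genes (Rpl19, Rpl22l1, Rpl27, Rpl35, Rpl4, Rps15, Rps19, Rps20, Rps24, Rps27l and Rps9). The Rps9 probe set was 1434624_x_at, with the largest fall against WT in M4 (-3.80). It was as low with the transgene off (-4.06 in M1 against WT), and so is among the falls of both M groups.

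Fewer members were called between the off groups and WT. Z1 had 11 lower and 3 higher, beside 16.9% and 4.52% of all probe sets, and M1 had 7 and 5, beside 18.8% and 4.54%. After quantile normalization the counts were 6 and 2 in Z1, beside 6.55% of all probe sets lower and 6.25% higher, and 2 and 7 in M1, beside 6.92% and 6.33%, so the balance in M1 turned with the scale. The members' medians were -0.06 and 0.01, against -0.16 and -0.17 for all. Rps18 1448739_x_at was lower in both off groups (-0.81 in Z1, -0.48 in M1): it read 2740.7, 2506.5 and 2330.8 in Z1, 3330.9, 3178.4 and 3011.7 in M1, and 4045.9, 4354.9 and 4906.3 in WT. Z4, at 2967 ± 176 (SD, n = 3), was lower than WT as well (-0.57). Rps26 (-0.60 in Z1 and -0.46 in M1), Rps14 1436586_x_at (-0.53 and -0.46) and Rpl37a 1416217_a_at (-0.56 and -0.42) were also lower than WT. After quantile normalization these 4 calls held in Z1, and in M1 only that of Rps14 did. The off groups differ from WT in the transgene, which was off, and in doxycycline.

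Between the lines, Z4 had 1 member lower than M4 and 2 higher, beside 1.11% and 3.36% of all probe sets. Rps28 1454778_x_at, a small subunit protein, read 1974.6, 2200.6 and 2054.3 in Z4 and 3243.8, 3018.9 and 3461.8 in M4. Its change was -0.64 (SE 0.13, limma adjusted p = 0.0198), and the groups did not overlap. Z1 and M1 read 2975 ± 287 and 3037 ± 311, and the interaction for this probe set was -0.61 with a limma adjusted p of 0.15. Without arrays M4 1 and M4 2, 8 members were lower in Z4 and 4 higher, the lower ones including Rps15, Rpl19, Rpl27 1416099_at and Rplp0. Without M4 1 alone the counts were 10 and 4, and without any 1 of the other arrays but Z4 2 they were 0 and 1.

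Rps9, a small subunit protein that binds early in assembly, held the largest difference between the lines. Probe set 1434624_x_at read 1384.7, 1275.5 and 756.1 in Z4, 1456.6, 1055.5 and 1905.4 in Z1 and 1142.8, 920.7 and 962.9 in WT. In the M line it read 73.5, 78.2 and 30.9 in M4 and 47, 27 and 68 in M1. Every M array was far below every other array, whether the transgene was on or off. The change was 3.93 (SE 0.32, limma adjusted p = 3.24e-05) for Z4 against M4 and 4.57 (SE 0.32, limma adjusted p = 1.33e-05) for Z1 against M1, the largest absolute change of 22626 probe sets in that comparison. Z1 and M1 differed in 22 probe sets in all, 0.0486% lower and 0.0486% higher, and Rps9 was the only member. The other bright Rps9 probe set, 1433689_s_at, read 1223.5 to 2049 over all 15 arrays and was not called between the lines (-0.15 on, -0.31 off). It was called lower in the on groups (-0.32 and -0.47).

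**Figure D5:**
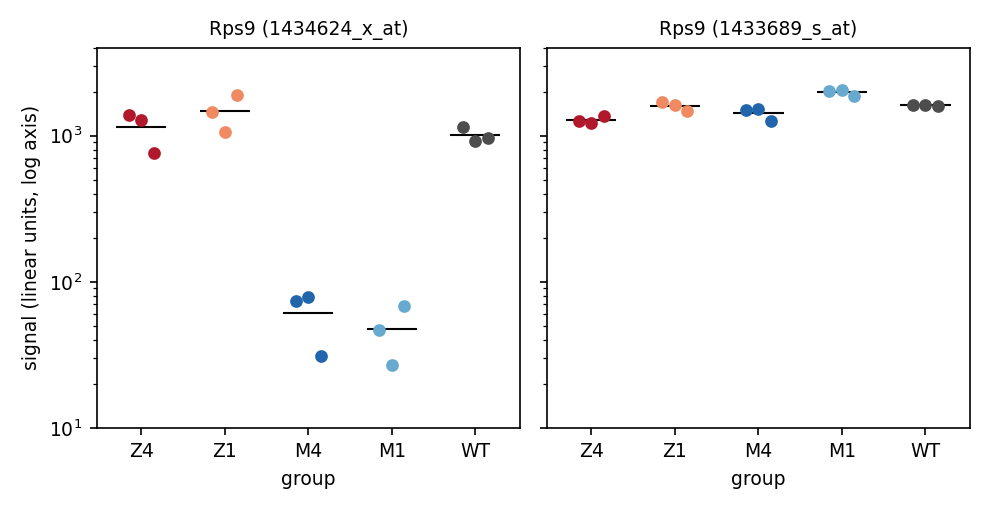
Signal per array (linear units, log axis) of both bright Rps9 probe sets in the 5 groups, with group means as black lines (n = 3). The 6 M arrays read 27 to 78.2 on 1434624_x_at, where the other 9 read 756.1 to 1905.4, and 1433689_s_at read 1223.5 to 2049 on all arrays.

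Genes of related function were read from lists, beside the 8.14% of all probe sets called lower and 27.9% higher in Z and the 13.4% and 33.2% in M. Fau, which encodes the small subunit protein Rps30 as a ubiquitin-like fusion, was the only ribosomal protein on the array with a name outside the rule. It read 1104 ± 109 in Z4, 2728 ± 247 in Z1, 1576 ± 75.6 in M4, 2876 ± 64.4 in M1 and 3211 ± 88.3 in WT (SD, n = 3 each). It fell in both lines, with changes of -1.29 in Z and -0.86 in M, and was lower in Z4 than in M4 (-0.51, SE 0.12, limma adjusted p = 0.0284). It kept its direction and call in Z and M after both other normalizations.

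Of 15 other genes with TOP transcripts, 5 fell and 1 rose in Z, and 7 fell and 0 rose in M by limma, where 8 were lower and 0 higher at an unadjusted p under 0.05. The median changes were -0.24 and -0.38, against 0.21 and 0.23 for all probe sets. Subunits of the factor that reloads elongation factor 1A fell most in Z: Eef1d changed by -1.22 in Z and -1.11 in M and Eef1b2 by -1.0 and -0.84. Hnrnpa1, a splicing factor, changed by -0.77 and -0.78. Naca, of the nascent chain complex, changed by -0.45 and -0.65, and its call in Z was lost after either normalization. The exception was Eif3e, an initiation factor subunit, which rose in Z (0.71) and was not called in M (0.14). After quantile normalization the counts were 4 lower and 2 higher in Z and 6 and 1 in M.

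The lists on making ribosomes did not move as one. Of 36 ribosome assembly genes, 4 fell and 6 rose in Z, and 14 fell and 8 rose in M, with medians of -0.03 and -0.23. After quantile normalization the counts were 9 and 4 in Z and 17 and 6 in M, so the balance in Z turned with the scale. Rrp1, a nucleolar protein, rose by 1.06 in Z and 1.30 in M. Heatr1, which acts in early processing of ribosomal RNA, rose by 0.64 and 0.81, and Rrs1 fell in M (-1.39). Of 12 genes of RNA polymerase I, which transcribes ribosomal RNA, 4 rose in Z and 5 in M and 0 fell by limma, including Polr1a (0.95 and 0.85) and Ubtf (0.75 and 0.67). The rises were near the share of all probe sets called higher, 27.9% in Z and 33.2% in M, and are not read as a result about the list. At an unadjusted p under 0.05, 1 was lower in Z and 0 in M. After either normalization 2 rose in each line and the list's medians were below 0.

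Of 24 initiation factors, 3 fell and 1 rose in Z, and 10 fell and 3 rose in M, among them Eif1a (-2.02), Eif2s2 (-1.44) and Eif5b (-1.39) in M. Of 7 genes for elongation and release, 0 fell and 3 rose in Z and 2 and 2 in M, including Eef2k, the kinase that inhibits elongation factor 2 (1.49 and 0.90). At an unadjusted p under 0.05, 1 was lower in Z by limma. Of 12 genes of mTORC1 and the control of ribosomal protein synthesis, 1 fell and 4 rose in Z and 2 and 4 in M, including the mTORC1 inhibitor Tsc2 (0.51 and 1.07). These rises too were near the 27.9% and 33.2% of all probe sets. The Tsc2 call in Z and the Eef2k call in M were lost after either normalization. After quantile normalization the mTORC1 counts were 2 lower and 1 higher in Z and 2 and 3 in M.

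Mitochondrial ribosomal proteins, which build the separate ribosome of the mitochondrion, served as a comparison. Of their 127 probe sets (74 genes), 17 were lower and 20 higher in Z, and 15 and 27 in M, with medians of 0.00 and 0.07. After quantile normalization the counts were 25 and 10 in Z and 16 and 18 in M. The cytosolic members' counts on that scale were 31 and 7, and 36 and 6, of 100.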

How the data were processed

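RNA of 15 mouse livers was measured on 15 Affymetrix arrays, 1 per mouse. The deposited values are linear intensities per probe set, from 0 upwards. The submitters' processing notes name RMA, whose usual output is log2, so the step that made the deposited scale is not known. Gene symbols came from GEO's platform annotation, which can be old. Members were probe sets with a single matching symbol, followed as probe sets because those of a gene can differ.

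Values were tested as log2(value + 16) with limma 3.58.1 in R 4.3.3, with 1 mean per group over 15 arrays, 10 residual degrees of freedom and Benjamini-Hochberg adjustment within each of 9 comparisons over 22626 non-control probe sets (64 control probe sets were left out). A fold change on this scale understates changes of dim probe sets. The number of arrays limits the precision, and 3 replicates a group measure the spread between these mice.

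Alternatives were quantile and cyclic loess normalization, added constants of 1 and 64, only probe sets above the 40th percentile of signal, 1 probe set per gene, only the groups compared, an intensity trend with robust spread, a replicate block and arrays left out.

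The members and the gene lists were chosen with earlier results of these data known. Named were Rpsa, Rps6, Rplp0, Rplp2 and the paralogues, the up to 8 largest called rises and falls and up to 4 of each whose groups did not overlap per comparison, genes whose probe sets disagreed, dim members, the 3 brightest and the 3 dimmest, and up to 4 called genes of each related list with the smallest adjusted p. Rps3, Rpl4, Rpl6 and Rpl7a were named after their values were seen.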

Additional observations from a re-analysis of the deposited data

How the results depend on the processing

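Each comparison was recomputed under the alternatives, and the counts below are member probe sets called by limma. For 217 main values, which are named probe sets by comparison and the members' median in each comparison, 3390 alternative values were computed. Of these, 2984 were unchanged, 247 lost a call and 29 gained one. Unchanged means the same direction and side of the threshold, or for a median a move within the spread between arrays. Another 128 moved: a probe set called in neither fit turned direction, or a median moved by more than that spread. In 2, a probe set with a call in at least 1 fit turned direction. Those 2 were Rpl41 1454639_x_at in M4 minus M1, at -0.0244 after quantile and -0.15 after cyclic loess normalization. The cause was not tested.

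Falls against WT depended on the scale, with 16 in Z4 after quantile and 16 after cyclic loess normalization, 16 in M4 after cyclic loess, 6 and 6 in Z1, and 2 in M1 after quantile. Rises numbered 8 and 8 in M4 against WT and 9 after cyclic loess in M1 against WT. Z4 against M4 then had 2 falls and 1 rise after quantile normalization.

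With a constant of 1, falls against WT were 25 in Z4 and 7 in Z1, rises were 1 and 1, and Z4 against M4 had 0 and 1. With 64, Z4 against M4 had 4 and 1, and rises against WT were 5 in Z1 and 9 in M1. The filter at the 40th percentile gave 5 rises in M4 against M1, and 3 and 1 in Z4 against M4. The trend with robust spread gave 4 and 1 there and 5 rises in Z1 against WT. With only the groups compared, Z4 against M4 had 0 and 1, M4 against WT 14 and 1, and M1 against WT 8 rises.

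With 1 probe set per gene, which leaves at most 48 members, falls and rises were 20 and 2 in Z4 against Z1, 19 and 2 in M4 against M1, 0 and 0 in Z4 against M4, 21 and 0 in Z4 and 14 and 0 in M4 against WT, and 3 and 1 in M1 against WT. Rises were 0 in Z1 against M1 and 1 in Z1 against WT.

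With each array left out in turn, falls ranged from 27 to 35 in Z4 against Z1, 33 to 40 in M4 against M1, 0 to 10 in Z4 against M4 (10 without M4 1), 26 to 33 in Z4 and 22 to 29 in M4 against WT, 6 to 9 in Z1 against WT (6 without Z1 2) and 4 to 6 in M1 against WT (4 without M1 3, WT 2 or WT 3). Rises ranged from 4 to 6, 3 to 8, 1 to 4, 1 to 2, 2 to 5, 1 to 3 and 3 to 5 in the same order, with 5 in M4 against WT without M4 1, 1 in Z1 against WT without Z1 1, WT 2 or WT 3, and 3 in M1 against WT without M1 2. The interaction had 0 to 3 rises, 3 without M4 1. Without M4 1 and M4 2 it had 4, M4 against M1 had 22 falls and 3 rises, Z4 against M4 8 and 4, and M4 against WT 14 falls. Without M4 2 and M4 3, Z4 against M4 had 0 and 1 and M4 against WT 17 falls.

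Same-numbered arrays did not deviate together (correlations of -0.20 to 0.06 over 30 pairs), so the numbers pair no samples. With the replicate number as a block, falls were 37 in Z4 against Z1, 39 in M4 against M1, 33 in Z4, 26 in M4 and 7 in Z1 against WT, with 1 rise in Z4 against M4 and 1 in Z4 against WT. The 16 dim members read below 50 on every array, which limits what their changes show.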
